A study of Mus musculus with 11 samples.

Results

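The canonical Wnt pathway was followed in adrenals of mINDY-KO mice and their WT littermates through 10 genes: the ligand gene Wnt4, β-catenin (Ctnnb1), Gsk3b, Apc and Axin2 of the complex that destroys β-catenin, the DNA-binding factors Lef1 and Tcf7l2, and the Groucho corepressors Tle1, Tle2 and Tle3. The genes were taken by symbol, and all 21 of the 25697 array probes that carry one of these symbols were examined, out of 16593 genes named on the array. The genes were chosen on the difference between the genotypes in these arrays, which was already known. Their values in the 2 genotypes are therefore given as a description, without a test.

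mINDY is the plasma membrane citrate transporter encoded by Slc13a5. The 5 mINDY-KO mice were homozygous for a deletion in this gene, made by crossing mice with the targeted allele to mice carrying an Hprt1-Cre transgene, so that the deletion was not limited to the adrenal. The 5 WT mice were littermates. All were males of 12 to 16 weeks on a C57B/6J background and had free access to standard chow. Total RNA of whole adrenals was hybridized to 11 Illumina bead arrays, because the RNA of WT replicate 1 was run on 2 arrays, which were averaged. The number of WT samples that the study gives for the array equals that of the WT arrays, not that of the WT mice named in the labels.

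In the canonical Wnt pathway, a complex of APC, axin and the kinases GSK3β and CK1 marks β-catenin for degradation. When a Wnt ligand binds Frizzled and LRP receptors, this complex is held back, β-catenin enters the nucleus and joins LEF/TCF factors on DNA. Without β-catenin, LEF/TCF factors hold Groucho proteins (TLE in mammals), which have no DNA-binding domain of their own and repress genes by recruiting other proteins. In the adrenal cortex, Wnt signaling is known for its part in the outer zone, the zona glomerulosa, where Wnt4 is made and where signals from the capsule maintain the tissue.

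Among the 10 genes, the largest differences between the genotypes lay in Tle1 and Tle2. To show what is known of their start sites, the 300 bases from 250 before to 50 after the RefSeq transcription start (mouse build GRCm38.p6) are printed for Tle1 (chr4:72200844-72201143, minus strand) and Tle2 (chr10:81575037-81575336, plus strand), whose RNA was lower in mINDY-KO mice, and for Tle3 (chr9:61372116-61372415, plus strand), for which no lower level was measured. They read 5′ to 3′ on the strand of the gene, with the GC box GGGCGG in capitals on either strand, where it appears as CCGCCC when it lies on the other strand.
Tle1: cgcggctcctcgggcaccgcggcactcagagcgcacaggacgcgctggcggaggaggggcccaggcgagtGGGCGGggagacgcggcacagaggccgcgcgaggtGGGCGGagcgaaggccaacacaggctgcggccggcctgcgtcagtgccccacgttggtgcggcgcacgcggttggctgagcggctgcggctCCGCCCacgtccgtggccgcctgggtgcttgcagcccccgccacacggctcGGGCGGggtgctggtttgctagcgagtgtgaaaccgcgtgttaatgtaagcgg
Tle2: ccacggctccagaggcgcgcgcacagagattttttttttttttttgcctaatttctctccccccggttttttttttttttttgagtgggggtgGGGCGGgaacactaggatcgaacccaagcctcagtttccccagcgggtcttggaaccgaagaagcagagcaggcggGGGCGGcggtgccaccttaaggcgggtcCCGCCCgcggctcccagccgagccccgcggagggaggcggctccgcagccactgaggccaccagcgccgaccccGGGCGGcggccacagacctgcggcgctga
Tle3: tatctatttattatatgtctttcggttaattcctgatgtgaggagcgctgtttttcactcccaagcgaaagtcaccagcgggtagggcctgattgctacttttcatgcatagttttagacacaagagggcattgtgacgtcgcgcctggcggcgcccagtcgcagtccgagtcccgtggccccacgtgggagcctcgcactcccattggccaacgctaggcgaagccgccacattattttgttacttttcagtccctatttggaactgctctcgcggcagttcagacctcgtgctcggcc
The windows of Tle1 and Tle2 hold 4 GC boxes each and that of Tle3 holds 0, while 35.7% of all 32851 windows of this length hold at least 1. Windows of the other members hold 8 (Wnt4), 3 and 3 (Ctnnb1), 2 (Axin2), 0 (Gsk3b), 6 and 0 (Tcf7l2) and 1, 1, 1 and 0 (Lef1). The windows of Ctnnb1 overlap each other, as do the first 2 of Lef1, so that a GC box can be counted more than once. Gsk3b was also lower on average in mINDY-KO mice, and a link between GC boxes and RNA level was not tested. GC content was 73.7% for Tle1, 64.7% for Tle2 and 53.7% for Tle3. The windows of Tle1 and Tle2 hold 0 matches to the CCAAT box (CCAAT), which is in 37.4% of all windows, and that of Tle3 holds 1. None of the 3 windows holds TATAAA on either strand, the TATA box, against 13.6% of all windows. A match describes the letters of the window and was not tested as a binding site.

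The median signal was 150 to 202 on the 6 WT arrays and 122 to 238 on the 5 mINDY-KO arrays, with mINDY-KO replicates 3 and 4 lowest (127 and 122). Slc13a5, the deleted gene, was detected on 0 of the 11 arrays, with signals of 130 to 166 on WT and 106 to 222 on mINDY-KO arrays, so that its probe does not check the genotype labels. All 6 markers of the adrenal cortex and all 6 of the medulla were detected in both genotypes.

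Of the 21 probes, 15 were detected (detection p under 0.05 in at least 5 of the 10 mice), with at least 1 for each of the 10 genes. Levels are given as log2 units above the mean of the array, after each array was set to the same spread, so that a difference of 1 reads as a factor of 2, and each difference is mINDY-KO minus WT. They are relative to the other probes of the array and, in whole adrenals, fewer cells of a type and less RNA per cell cannot be told apart. The 6 probes that were not detected, 2 of Tle1 and 1 each of Apc, Lef1, Tcf7l2 and Tle3, were above background in 0 of the 10 mice and give no difference. Of the 13341 detected probes, 2 passed an adjusted p of 0.05 between genotypes (limma with Benjamini-Hochberg adjustment), which is 0.015%, and 0 of the 15 member probes were among them. As the mean of a gene's brightest detected probe, 7 of the 10 genes were lower in mINDY-KO mice, as were 56.4% of all 9302 genes measured. The median difference over the 10 genes was -0.07 on the log2 scale, against -0.02 over all genes. Under other settings, leaving out mice included, it ran from -0.12 to -0.06. The former came with a stricter detection filter, which left 8 of the 10 genes, and the latter with quantile normalization. With neqc, limma's normalization for these arrays, it was -0.10.

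**Figure D1:**
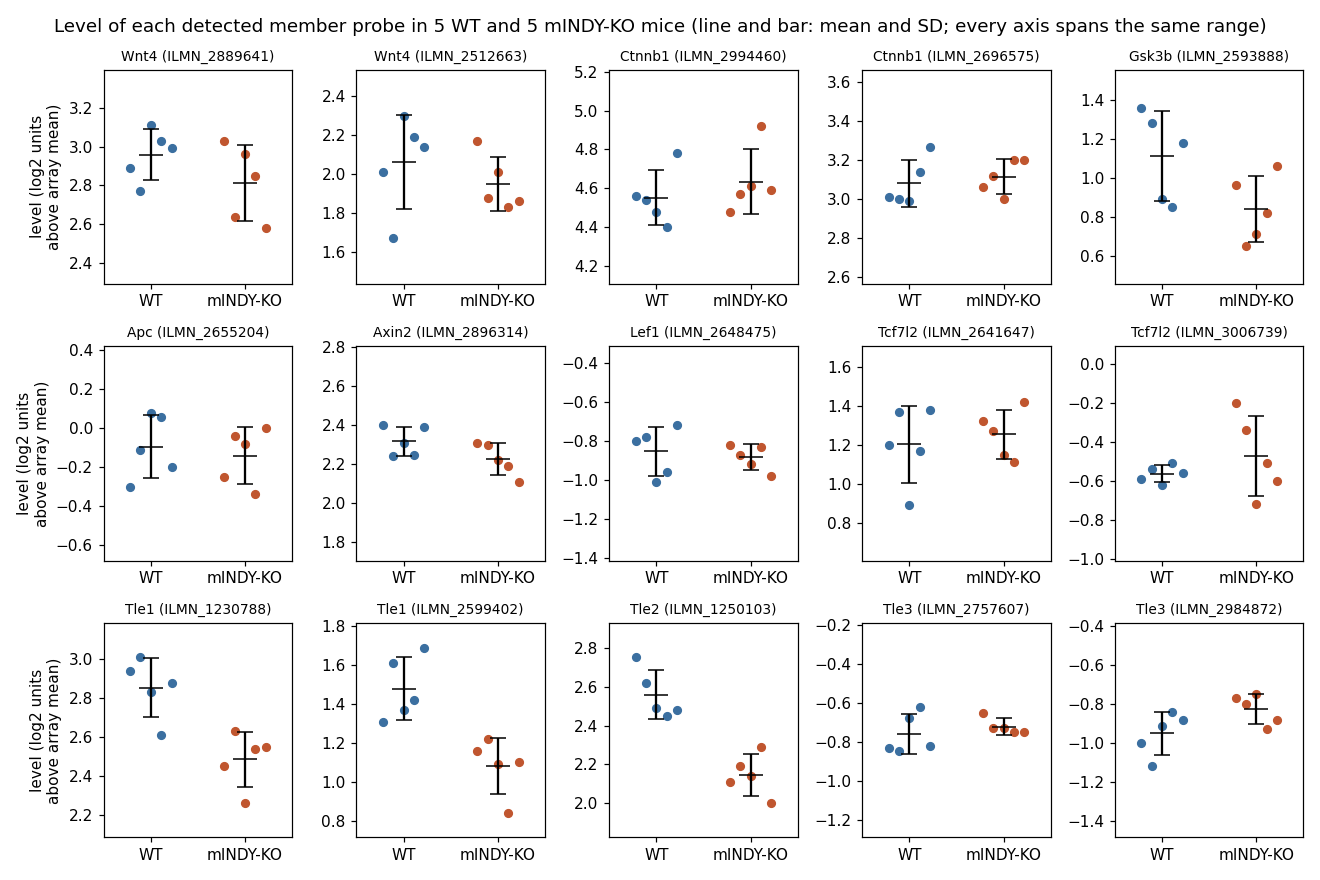
Level of each of the 15 detected member probes (vertical axes, log2 units relative to the mean of the array, each spanning the same range) in 5 WT and 5 mINDY-KO mice, with 1 point per mouse and the mean ± SD. The mINDY-KO points lie below all WT points for Tle2 and for probe ILMN_2599402 of Tle1, and the groups overlap in the other panels.

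Tle2 had the largest difference of the 15 probes. Its single probe (ILMN_1250103) was at 2.75, 2.62, 2.49, 2.45 and 2.48 in WT replicates 1 to 5. Among mINDY-KO replicates 1 to 5 it stood at 2.11, 2.19, 2.14, 2.29 and 2.00. All 5 mINDY-KO mice lay below every WT mouse. The mean fell from 2.56 ± 0.12 to 2.14 ± 0.11 (SD, 5 mice per genotype), a difference of -0.41 (standard error 0.080) or 0.750 times the WT level.

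Tle1 was lower by a like amount at both of its detected probes. The brighter probe (ILMN_1230788) was at 2.94, 3.01, 2.83, 2.61 and 2.88 in WT replicates 1 to 5. The mINDY-KO replicates 1 to 5 had 2.45, 2.63, 2.26, 2.54 and 2.55. Of the mINDY-KO mice, 4 of 5 lay below every WT mouse, and mINDY-KO replicate 2 lay just above the lowest WT mouse, replicate 4. The difference was -0.37 (standard error 0.090), from 2.85 ± 0.15 to 2.48 ± 0.14 (SD, 5 mice per genotype). The second probe (ILMN_2599402) was at 1.31, 1.61, 1.37, 1.42 and 1.69 in WT replicates 1 to 5. In mINDY-KO replicates 1 to 5 it was at 1.16, 1.22, 1.09, 0.84 and 1.10, and here the groups did not overlap. Its difference was -0.40 (standard error 0.092), or 0.757 times the WT level, from 1.48 ± 0.16 to 1.08 ± 0.14 (SD, 5 mice per genotype). Both probes read the same mice, so that they are not independent replicates. Without mINDY-KO replicates 3 and 4, whose arrays were dimmest, the difference was -0.46 for Tle2 and -0.31 and -0.32 for the probes of Tle1.

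No overlap between the genotypes was thus found for 2 of the 15 member probes, in both cases with mINDY-KO below WT, and across all 13341 detected probes this pattern held for 1.32%. The thresholds in the methods of the study (Z ratio beyond 1.5, unadjusted p under 0.05 and false discovery rate under 0.3) were met by the same 2 member probes, with lower levels in mINDY-KO mice, and by 0.555% of detected probes in that direction. Since the genes were chosen with this contrast known, these shares stand beside the counts as background only.

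The third Groucho gene, Tle3, was not lower on average. Its brighter detected probe (ILMN_2757607) was at -0.83, -0.85, -0.68, -0.62 and -0.82 in WT replicates 1 to 5. Among mINDY-KO replicates 1 to 5 it stood at -0.65, -0.73, -0.73, -0.75 and -0.75. All mINDY-KO mice lay within the range of the WT mice, and the difference was 0.04 (standard error 0.069). Its signal was 128 to 254 on the 11 arrays, close to background. A further probe (ILMN_2984872) was detected in 1 of 5 WT and 4 of 5 mINDY-KO mice, so that it passed the filter mainly through the mINDY-KO group. Its difference was 0.12 (standard error 0.073), and it is given only for completeness. When background was estimated and the arrays normalized with neqc instead, the differences of these probes were 0.15 and 0.37, while those of Tle1 (-0.38 and -0.44) and Tle2 (-0.44) moved little. Whether Tle3 differs from Tle1 and Tle2 in its response was not tested.

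Among the other Groucho family genes, Tle6, a shorter and divergent relative, averaged 3.48 ± 0.11 among WT and 3.28 ± 0.11 in mINDY-KO mice (SD, 5 mice per genotype), a difference of -0.20 (SE 0.077, limma adjusted p = 0.368). Tle4, a full-length corepressor, differed by -0.07 (SE 0.093, limma adjusted p = 0.837). Tle5, also named Aes, lacks the WD40 repeats with which the long proteins bind their partners, and differed by 0.05 (SE 0.076, limma adjusted p = 0.856). None of the 3 passed the test.

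Several lists of cell type markers were read beside these genes. Of 5 markers of the adrenal capsule, 4 were detected and all 4 had lower means in mINDY-KO mice, and Gli1 was not detected. Nr2f2, a nuclear receptor of mesenchymal and capsular cells, averaged 1.21 ± 0.28 among WT and 0.60 ± 0.18 in mINDY-KO mice (SD, 5 mice per genotype). Its difference was -0.61 (SE 0.12, limma adjusted p = 0.133), without overlap between the genotypes. The other detected capsule markers overlapped, with smaller differences of -0.18 (Pdgfra), -0.15 (Rspo3) and -0.04 (Wt1). Rspo3 is also counted in the list of Wnt ligands. The mean level of the capsule list was 1.55 to 1.66 in WT and 1.22 to 1.56 in mINDY-KO mice, and mINDY-KO replicate 2, the highest of its group at 1.56, lay within the WT range. Medullary markers, all 6 detected, had a mean of 3.63 to 4.28 in WT and 3.41 to 4.11 in mINDY-KO mice, with 5 of 6 lower. Among them Ddc, which makes dopamine, averaged 2.78 ± 0.16 among WT and 2.43 ± 0.11 in mINDY-KO mice (SD, 5 mice per genotype), without overlap (adjusted p = 0.170 from limma). All other medullary markers overlapped between the genotypes. They differed by -0.21 (Pnmt), -0.20 (Chga), -0.11 (Th), -0.08 (Dbh) and 0.11 (Chgb). Markers of the cortex (6 of 6 detected, 3.78 to 3.87 in WT and 3.65 to 4.12 in mINDY-KO mice) and of the endothelium (5 of 5 detected, 1.58 to 1.78 and 1.59 to 1.75) overlapped between genotypes. So did those of the macrophage (4 of 6 detected, 1.5 to 1.95 and 1.64 to 2.10). For the adipocyte, Cfd, Cidec and Retn were not detected, and the mean of the 3 detected markers was -0.56 to -0.17 in WT and -0.53 to 0.41 in mINDY-KO mice, with mINDY-KO replicate 5 highest. None of the 4 kidney markers was detected. No marker passed the test over all probes, and the part of these cell types in the lower Tle1 and Tle2 levels was not tested.

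Gsk3b, the kinase that phosphorylates β-catenin for degradation, was lower on average in mINDY-KO mice, all 5 of which lay below the WT mean. Its probe (ILMN_2593888) was at 1.36, 1.28, 0.89, 0.85 and 1.18 in WT replicates 1 to 5. The mINDY-KO replicates 1 to 5 had 0.96, 0.65, 0.71, 0.82 and 1.06. WT mice fell into higher (replicates 1, 2 and 5) and lower values (replicates 3 and 4), and mINDY-KO replicates 1 and 5 lay between them, so that the groups overlapped. The difference was -0.27 (standard error 0.11), from 1.11 ± 0.23 to 0.84 ± 0.17 (SD, 5 mice per genotype).

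The other members of the destruction complex showed smaller differences. Axin2, a scaffold of the complex and itself a target gene that reports β-catenin activity, was at 2.40, 2.24, 2.31, 2.25 and 2.39 in WT replicates 1 to 5. In mINDY-KO replicates 1 to 5 it was at 2.31, 2.30, 2.22, 2.19 and 2.11, so that 3 of 5 lay below every WT mouse. The difference was -0.09 (standard error 0.069), in a gene whose mice varied little (SD 0.075 in WT and 0.086 in mINDY-KO mice). Apc, a scaffold that binds β-catenin, averaged -0.09 ± 0.16 among WT and -0.14 ± 0.14 in mINDY-KO mice (SD, 5 mice per genotype), a difference of -0.05 (standard error 0.093). β-Catenin itself (Ctnnb1) was bright at both probes, with differences of 0.08 (standard error 0.093) and 0.03 (standard error 0.077). At the brighter probe (ILMN_2994460) it was at 4.56, 4.54, 4.48, 4.40 and 4.78 in WT and at 4.48, 4.57, 4.61, 4.92 and 4.59 in mINDY-KO replicates 1 to 5. Replicate 4 stood above the other mINDY-KO mice, and without mINDY-KO replicates 3 and 4 the difference was -0.0049.

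Wnt4, the ligand gene of the zona glomerulosa, was at 2.89, 2.77, 3.11, 3.03 and 2.99 in WT replicates 1 to 5 by its brighter probe (ILMN_2889641). Among mINDY-KO replicates 1 to 5 it stood at 3.03, 2.64, 2.96, 2.85 and 2.58. Replicates 2 and 5 lay below every WT mouse, while replicates 1, 3 and 4 lay within the WT range. The difference was -0.14 (standard error 0.097) by this probe and -0.11 (standard error 0.11) by the second one, ILMN_2512663, which moved to -0.05 when WT replicate 3 was left out and to -0.21 when WT replicate 2 was. Both probes had WT replicate 2 as the lowest and WT replicate 3 as the highest WT mouse. The zona glomerulosa markers (3 of 4 detected, Hsd3b6 not) had a mean of 1.75 to 2.83 in WT and 1.94 to 2.35 in mINDY-KO mice. Their highest value was in WT replicate 3 as well, but their lowest was in WT replicate 1 and not in replicate 2 (2.21). In mINDY-KO replicate 5 the marker mean was the highest of its group (2.35), while Wnt4 was the lowest by the brighter probe (2.58). The part of the zona glomerulosa in these Wnt4 levels was not tested.

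The LEF/TCF factors gave no uniform direction. Tcf7l2 differed by 0.05 (standard error 0.097) by its brighter probe (ILMN_2641647), from 1.20 ± 0.20 in WT to 1.25 ± 0.12 in mINDY-KO mice (SD, 5 mice per genotype), and the sign turned without WT replicate 3 (-0.03). Its dimmer probe (ILMN_3006739) was at -0.59, -0.54, -0.62, -0.51 and -0.56 in WT and at -0.20, -0.34, -0.72, -0.51 and -0.60 in mINDY-KO replicates 1 to 5. The mINDY-KO mice spread wider here, with an SD of 0.21 against 0.042 in WT mice, and replicates 1 and 2 were the highest of all. Lef1 was detected in 3 of 5 mice of each genotype, and its difference was -0.03 (standard error 0.074).

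Matches to the LEF/TCF motif were looked for at the start sites of the members, to show which of them hold the letters such factors bind. The motif was searched as CTTTGA or CTTTGT followed by A or T, on both strands. RefSeq windows were found for 9 of the 10 genes (14 windows, and none for Apc), and some windows of Ctnnb1 and of Lef1 overlap. A match was held by 2 of the 14, against 16.9% of all windows. Both matches lie at further start sites of the factors themselves. The windows of Axin2, Wnt4, Tle1 and Tle2 held 0 matches, which says only that these letters are absent there. The 60 bases around each match are printed with the motif in capitals, for Lef1 (chr3:131156120-131156179, plus strand) and Tcf7l2 (chr19:55895280-55895339, plus strand), build GRCm38.p6.
Lef1: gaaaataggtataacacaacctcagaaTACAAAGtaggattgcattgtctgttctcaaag
Tcf7l2: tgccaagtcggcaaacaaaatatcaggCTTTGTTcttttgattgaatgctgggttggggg

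The 2 arrays of WT replicate 1 show how far the same RNA can differ between arrays. Over the 13341 detected probes the median absolute difference between them was 0.090 on the log2 scale, and 95% of probes differed by at most 0.28. Ctnnb1 differed by -0.35 at its brighter probe and Wnt4 by 0.31 at its dimmer probe, both beyond that limit and larger than the genotype difference of the same probe. The difference between the arrays was also the larger one for Lef1 (-0.20), the second Ctnnb1 probe (-0.14) and the brighter probes of Tcf7l2 (0.19) and Tle3 (-0.14). Tle1 differed by -0.18 and -0.20 at its detected probes, less than the genotype difference, with the first array lower. These are differences of 2 single arrays, while a genotype difference is one of means of 5 mice. Tle2 differed by 0.02 and Gsk3b by 0.096.

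**Figure D2:**
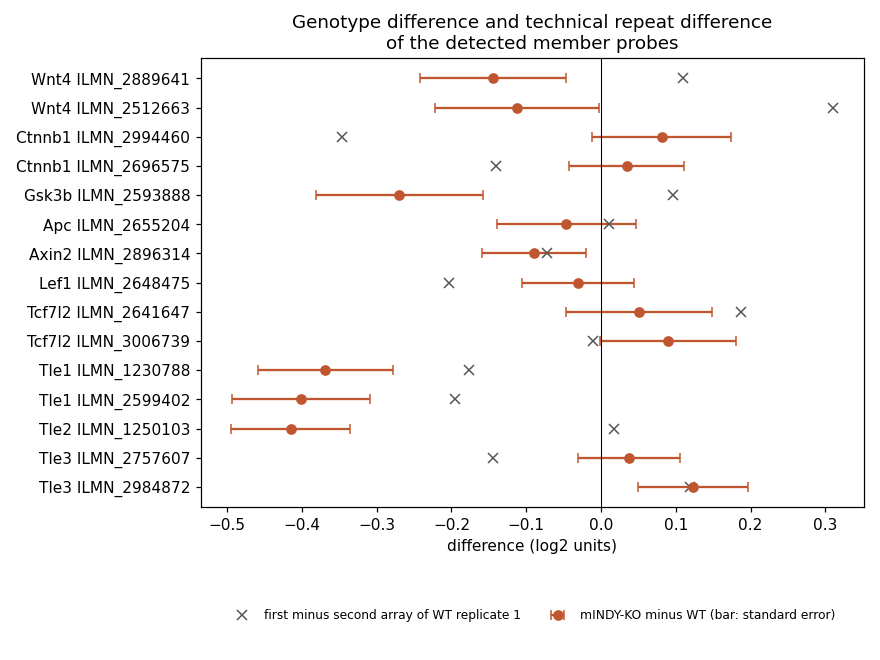
Difference in level between 5 mINDY-KO and 5 WT mice (points, with the standard error as bars) and between the 2 arrays of WT replicate 1 (crosses) for the 15 detected member probes, on a horizontal axis in log2 units. Tle1 and Tle2 lie at -0.37 to -0.41, and the technical difference of Ctnnb1 (-0.35) exceeds its genotype difference (0.08).

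The rest of the pathway was read from a list of other Wnt genes, chosen with earlier results of these data known, of which 92 were on the array and 53 were detected. None passed the test over all probes (limma), and at an unadjusted p under 0.05 4 of the 53 were lower and 0 higher, against 7.01% of genes lower and 4.33% higher among all 9302. Of the 53, 34 had a lower mean in mINDY-KO mice, with a median of -0.04, beside 56.4% of all genes and their median of -0.02.

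Ligands and the factors that release or strengthen them were detected for 7 genes, 4 lower and 3 higher. Wnt5a, a ligand of the β-catenin-independent branch, differed by -0.16 (SE 0.087, limma adjusted p = 0.527). Rspo3, the R-spondin that the capsule supplies to the zona glomerulosa, differed by -0.15 (SE 0.10, limma adjusted p = 0.627), and the ligand gene Wnt10a by -0.12. Of 11 detected receptors and receptor ligases, 8 were lower and 3 higher. Lgr5, a receptor for R-spondins, averaged 1.32 ± 0.17 among WT and 1.06 ± 0.080 in mINDY-KO mice (SD, 5 mice per genotype), a difference of -0.26 (SE 0.085, limma adjusted p = 0.30). Ryk, a Wnt receptor related to tyrosine kinases, differed by -0.22 (SE 0.097, limma adjusted p = 0.423), whereas Fzd8, a Frizzled receptor, differed by 0.15 (SE 0.085, limma adjusted p = 0.539).

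Of 8 detected genes of the Dishevelled and destruction complex list, 5 were lower and 3 higher, and the list median was -0.03. Dvl1, which carries the signal from Frizzled to the destruction complex, differed by -0.17 (SE 0.081, limma adjusted p = 0.458). Btrc, the ubiquitin ligase subunit that recognizes phosphorylated β-catenin, differed by -0.13, and the kinase gene Csnk1e by -0.07. Among 7 other nuclear factors, 6 were lower and 1 higher. The coactivator Bcl9l differed by -0.10, Tcf7l1, a LEF/TCF factor that mostly represses, by -0.09 and Pygo1, a partner of the Bcl9 proteins, by -0.07, each with an adjusted p from 0.718 to 0.858 (limma).

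Of 10 detected antagonists, 7 were lower and 3 higher. Among the 3 higher, the secreted antagonist Frzb (0.12) was detected in 2 of 5 WT and 5 of 5 mINDY-KO mice, so that it passed the filter through the group where it was higher, and no test is given for it. Nkd2, an inhibitor that acts on Dishevelled, differed by -0.12 and the secreted Sfrp1 by -0.17. Of 7 target genes of the pathway, 2 were lower and 5 higher, with a median of 0.07. Bmp4, a growth factor of the transforming growth factor β family, averaged 0.93 ± 0.10 among WT and 0.69 ± 0.12 in mINDY-KO mice (SD, 5 mice per genotype), a difference of -0.24 (SE 0.078, limma adjusted p = 0.297). Tnfrsf19 differed by 0.07 and Ccnd1, cyclin D1, by 0.09, with adjusted p of 0.775 and 0.795 (limma).

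**Figure D3:**
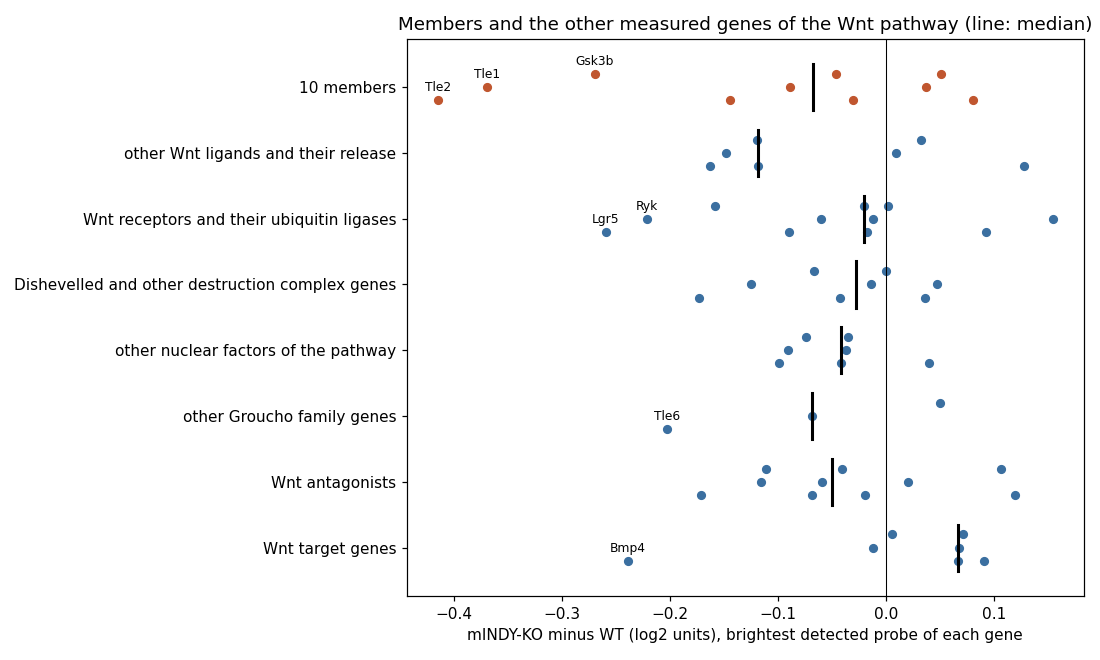
Difference between mINDY-KO and WT mice (horizontal axis, log2 units) of the 10 members and the 53 other detected pathway genes, by list, with 1 point per gene and a line at the median of each list. Genes that differed by more than 0.2 are named, and Tle2 (-0.41) and Tle1 (-0.37) lie farthest from 0.

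Beyond the genotype difference, it was asked which members varied together from mouse to mouse. For this the mean of each genotype was subtracted and the deviations of the 10 mice were correlated, which leaves out the contrast by which the genes were chosen. Of 45 pairs of members, 0 passed an adjusted p of 0.05 (two-sided exact permutation test within genotypes, 14400 permutations, Benjamini-Hochberg adjustment over the pairs), and 5 had an unadjusted p under 0.05. Tle1 and Tle2, both lower in mINDY-KO mice, had r = 0.44 and Spearman's rho = 0.45 (exact permutation p = 0.235 and 0.246, adjusted p = 0.441 and 0.693), with r = 0.44 without the 2 mice farthest from the median of Tle1. Tle1 and Tle3 had r = -0.68 and rho = -0.60 (exact permutation p = 0.0282 and 0.109, adjusted p = 0.382 and 0.693), and r = -0.77 without the 2 farthest mice. In each pair the 2 farthest mice were chosen by the deviations of the gene named first, and not by those of the second gene. The Tle3 probe used in these pairs was close to background, with signals of 128 to 254. Apc and Lef1 had the largest Pearson correlation in size, r = -0.83 and rho = -0.75 (exact permutation p = 0.0108 and 0.0336, adjusted p = 0.382 and 0.504), and r = -0.92 without the 2 farthest mice. Lef1 was detected in only 3 of 5 mice of each genotype, so that its deviations lie close to background. Wnt4 and Tle1 were at r = -0.67 and rho = -0.85 (exact permutation p = 0.0415 and 0.00931, adjusted p = 0.382 and 0.419), with r = -0.63 without the 2 farthest mice. The other pairs with an unadjusted p under 0.05 were Wnt4 with Tle3 and Apc with Tle2. Wnt4 and Tle3 had r = 0.60 and rho = 0.80 (exact permutation p = 0.0285 and 0.0192, adjusted p = 0.382 and 0.431), and r = 0.50 without the 2 farthest mice. Apc and Tle2 had r = -0.71 and rho = -0.55 (exact permutation p = 0.0424 and 0.145, adjusted p = 0.382 and 0.693), and r = -0.31 without the 2 farthest mice. The ligand gene Wnt4 and the target gene Axin2 had r = 0.34 and rho = 0.40 (exact permutation p = 0.376 and 0.311, adjusted p = 0.548 and 0.70), and the sign turned without the 2 farthest mice (r = -0.30). The values of all genes of a mouse share an array. The correlation of the members with the log2 median signal of the array, over the same deviations of 10 mice, ran from -0.50 for Ctnnb1 to 0.47 for Apc and was 0.26 for Tle1 and -0.49 for Tle2.

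**Figure D4:**
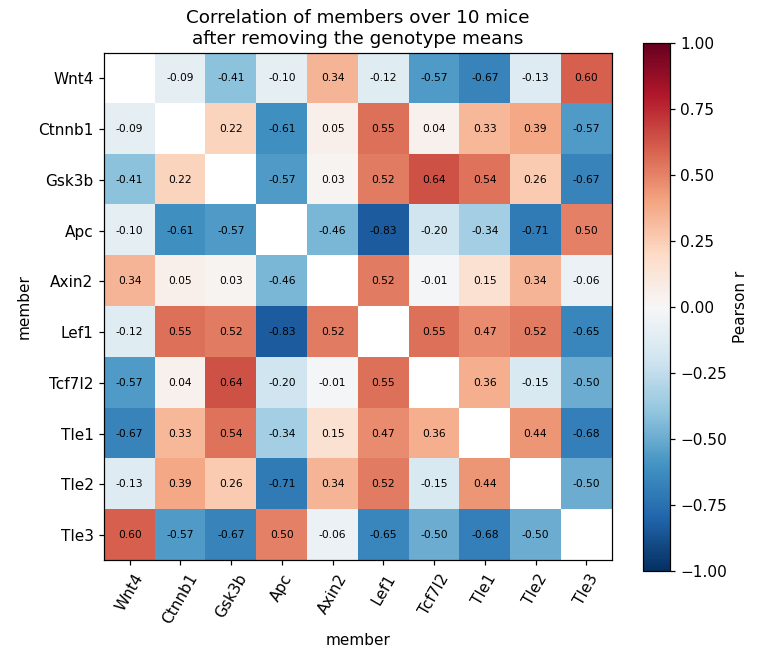
Pearson correlation of each pair of the 10 members (both axes) over 10 mice after the genotype means were removed, from -1 in blue to 1 in red. The pairs run from -0.83 (Apc and Lef1) to 0.64 (Gsk3b and Tcf7l2).

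For each member the most similar of 9292 other genes was taken by the same measure, the Pearson correlation of deviations over 10 mice, as a description. With so many genes compared, high values are found for every member, from 0.93 to 0.97. Echdc3 was the most similar to Tle1 (r = 0.958), Olfml3 to Tle2 (r = 0.956) and Foxk1, a transcription factor gene, to Tle3 (r = 0.928). For Gsk3b it was Myo5b, an unconventional myosin gene (r = 0.958), for Ctnnb1 Vcl, which encodes vinculin of cell junctions (r = 0.939), and for Tcf7l2 Lig1, a DNA ligase gene (r = 0.971). Tubg2 was closest to Axin2 (r = 0.959), Sh3bp5l to Wnt4 (r = 0.930), Pdhb to Apc (r = 0.946) and Dcaf4 to Lef1 (r = 0.952).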

How the data were processed

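Adrenal RNA of 5 WT and 5 mINDY-KO mice was read on 11 single-channel Illumina arrays. The authors deposited signal intensity values and a detection p-value for each of 25697 probes, exported without normalization across arrays, and a Z score per probe. The submitters' processing notes name GenomeStudio 2011.1. The Z scores equal the log10 signals centred on the array mean and divided by the SD, within 0.0102. This transformation was recomputed from the signals and multiplied by 1.57, the mean SD of log2 signals over arrays, and both arrays of WT replicate 1 were then averaged to 1 mouse.

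Probes with a detection p under 0.05 in at least 5 of 10 mice were kept (13341). Genotypes were compared with limma (version 3.58.1, R 4.3.3, two-sided, Benjamini-Hochberg over kept probes). Probe symbols came from the platform annotation (23978 probes with 1 symbol, 0 with several, 1719 unnamed), and gene lists used the brightest kept probe. Members, lists and tests were chosen with earlier results of these data known. Named are all members, up to 3 genes per pathway list by smallest p, and the gene most similar to each member. Detected markers of the capsule and medulla are also named. Means are given for Nr2f2 and Ddc because they did not overlap between the genotypes. The fit was tested on simulated data, as were the correlations. One marker list is not reported here. Slides are not given in the sources used here. The number of arrays limits the precision. Other settings were normalization by neqc or by quantiles, the Z scores as deposited, other detection filters, each array of WT replicate 1 alone, the replicate block, array weights, an intensity trend, the methods' thresholds and leaving out mice. Figures were drawn with matplotlib (version 3.10.9).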

Additional observations from a re-analysis of the deposited data

Results flagged for a closer look

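In 2 of 30 groups tested (15 probes in each genotype), 1 mouse stood apart from the other 4 by Dixon's criterion, where chance alone picks out about 1 in 20. At the brighter Ctnnb1 probe, mINDY-KO replicate 4 was at 4.92, which put 0.714 of the group's range between it and the nearest mouse. At the brighter Tle3 probe, mINDY-KO replicate 1 was the highest of its group at -0.65, with 0.778 of the range to the nearest mouse.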

How the results depend on the processing

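The lower levels of Tle1 (-0.31 to -0.43 at the brighter and -0.32 to -0.44 at the second probe), Tle2 (-0.37 to -0.46), Gsk3b (-0.21 to -0.34), Wnt4 (-0.09 to -0.21 at the brighter and -0.05 to -0.21 at the second probe) and Axin2 (-0.06 to -0.11) kept their direction under each of the 21 alternatives. The sign turned for Ctnnb1 without mINDY-KO replicates 3 and 4 (-0.0049), for Apc without mINDY-KO replicate 4 (0.0025), for Lef1 without WT replicate 5 (0.0025) and for Tcf7l2 without WT replicate 3 (-0.03). The cause was not tested. Some of the 21 alternatives could not turn a sign. The replicate block, the intensity trend and the other detection filters leave the difference of a probe as it is, and the deposited Z scores nearly so. Since the genes were chosen on this contrast, a kept direction is a description only. With the stricter detection filter (detection p under 0.01, 11699 probes) Lef1 and Tle3 dropped out, and 8 members were left.

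The 2 probes called among 13341 became 0 with neqc, 1 with the deposited Z scores, 0 without a detection filter, 6 with an intensity trend, 0 without mINDY-KO replicates 3 and 4, 111 with the methods' thresholds, and 0 to 14 when single mice were left out, with 14 without mINDY-KO replicate 2. None of the 53 other pathway genes and no pair of members was called under any alternative run. Settings without mINDY-KO replicates 3 and 4 were chosen from earlier results of these data. The replicate number as a block gave 1 called probe. Mice of the same number did not deviate together (r from -0.30 to -0.11 over the 5 numbers, and no mouse correlated best with its own number). Whether they shared anything beyond the number, such as a slide, cannot be told from this.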
